A study of Homo sapiens with 2 samples.

Results

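The 37 genes described here encode known substrates of the APC/C, the anaphase promoting complex, mostly of its FZR1 form, and close partners of theirs in S phase and mitosis. They were taken from a list of gene symbols, and the rule used no threshold on a measured value, although the list was drawn up with earlier results of these data known. All 37 were found among the 23033 genes with a value in the deposited table, and all 37 were among the 13554 genes kept, those that reached 1 FPKM in either library. FPKM is a fragment count divided by the length of the transcript and by the size of the library, so it can be compared between genes. RNAseq was performed on 2 libraries, both from cells given as T-47D, an established line of luminal breast cancer, and both treated with 2 µg/ml cisplatin. The series text speaks of 2 lines, while both samples carry the same line label, so a difference between genotypes and a difference between lines or clones cannot be told apart here. Control carried the genotype label WT, and FZR1 ko carried the label FZR1 ko. The knockout line was made with CRISPR/Cas9 and single cell screening, so it stands for 1 clone, and the time in cisplatin is not given in the sources used here for RNAseq. Each condition had 1 library, so no difference below has a replicate check, and no p-value is given. How many reads stand behind a value is unknown. Where a gene has a pair of FPKM values, control comes first and FZR1 ko second.

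The APC/C is a ubiquitin ligase that marks cell cycle proteins for the proteasome. CDC20 directs it in mitosis, and FZR1, also called CDH1, directs it from late mitosis through G1. Its substrates are mitotic kinases, cyclins, spindle proteins and enzymes of DNA synthesis. Their mRNA is made in waves as well, so a level in a bulk library mixes the amount per cell with the share of cells in each phase. In these libraries fewer cells in G2 or mitosis and less mRNA per cell cannot be told apart. Protein was not measured in the table, so the direct product of APC/C activity was not seen.

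The labels were checked first. FZR1 had 12.3 FPKM in control against 10.1 in FZR1 ko, which leaves the genotype unchecked, since a small insertion or deletion can leave the mRNA in place. Of 9 luminal markers, 4 passed 1 FPKM. ESR1, the oestrogen receptor, had 0.04 and 0.13 FPKM, GATA3 had 0.31 and 0.15 FPKM, and PGR had 0.01 FPKM in control and was at 0 in the other library. KRT19 had 0.20 and 0.16 FPKM, and the gene of E-cadherin, whose own symbol is CDH1, had 0.69 and 0.62 FPKM. These luminal markers were close to absent in both libraries. The luminal keratins KRT8, with 829 and 998 FPKM, and KRT18, with 552 and 740 FPKM, were high. EPCAM, an epithelial adhesion protein, differed more, with 3.90 and 11.5 FPKM. Of 8 basal and mesenchymal markers, 5 passed 1 FPKM. VIM had 315 and 295 FPKM, CDH2, or N-cadherin, had 2.97 and 15.3 FPKM, and the basal keratin KRT17 had 103 and 55.8 FPKM. FN1 at 6.33 and 5.88 FPKM and the luminal factor FOXA1 at 5.07 and 4.65 FPKM hardly differed. The basal markers KRT5, at 0.19 and 0.08 FPKM, and TP63, at 0.07 and 0.08 FPKM, were near 0 in both, as was KRT14, at 0.14 FPKM in control and 0 in the knockout library. Some markers of cell identity thus differed between the libraries and others hardly did, and their part in the values below was not tested. Near-absent luminal markers and high VIM in both libraries are unlike the luminal line named by the label, although KRT8 and KRT18 were high. The identity of the cells was not checked further. Of 8 immune and stromal markers 4 passed 1 FPKM, among them CD68 at 46.1 and 63.8 FPKM, COL1A1 at 5.13 and 6.25 FPKM and PDGFRB at 0.44 and 1.58 FPKM. PTPRC, the general leukocyte marker, had 0.08 and 0.09 FPKM, and CD3E and COL1A2 were listed at 0 in both. CDKN1A, which encodes the CDK inhibitor p21, had 319 FPKM in control against 77.2 in FZR1 ko. Its part in the values below was not tested.

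The mRNAs of the 37 genes were present in both libraries and mostly differed by less than 1.5-fold. In control they ran from 6.97 FPKM for HMMR to 386 FPKM for CKS1B with a median of 48.7 FPKM, and in FZR1 ko from 8.58 to 257 FPKM for the same genes with a median of 45.2 FPKM. The order of levels was similar, with a Spearman correlation of 0.88 over the 37 genes. Their summed level was 2614 FPKM in control against 2139 in FZR1 ko, and the log2 of their ratio was -0.29. They made up 0.520% and 0.427% of all FPKM. Differences for single genes are given as the log2 of (FPKM + 1) in FZR1 ko over (FPKM + 1) in control. The median over the 37 genes was -0.16, against -0.0048 over all genes kept.

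In FZR1 ko 22 of the 37 genes were lower and 15 higher, while 50.3% of all genes kept were lower and 49.6% were higher. At a threshold of 1.5-fold, 9 genes (24.3%) were lower, against a background of 17.6%. With the length trend removed as described below, 6 genes (16.2%) were, against 17.6%. Only 2 genes (5.41%) were 1.5-fold higher, against a background of 18%. At 2-fold, 1 gene was lower and 0 were higher, where the background was 6.72% and 6.78%. Genes of a like mean level were compared as well. Among the 7332 genes with a mean FPKM in the range of the 37, 17.2% were at least 1.5-fold lower and 14.3% at least 1.5-fold higher. The 9 lower genes were CDCA5, KIF22, NEK2, CCNB2, USP1, CKAP2, PTTG1, CDCA8 and CKS1B, and the 2 higher genes were ANLN and KIF11. CKS1B lay on the threshold, with a log2 ratio of -0.585 where 1.5-fold is 0.585.

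**Figure D1:**
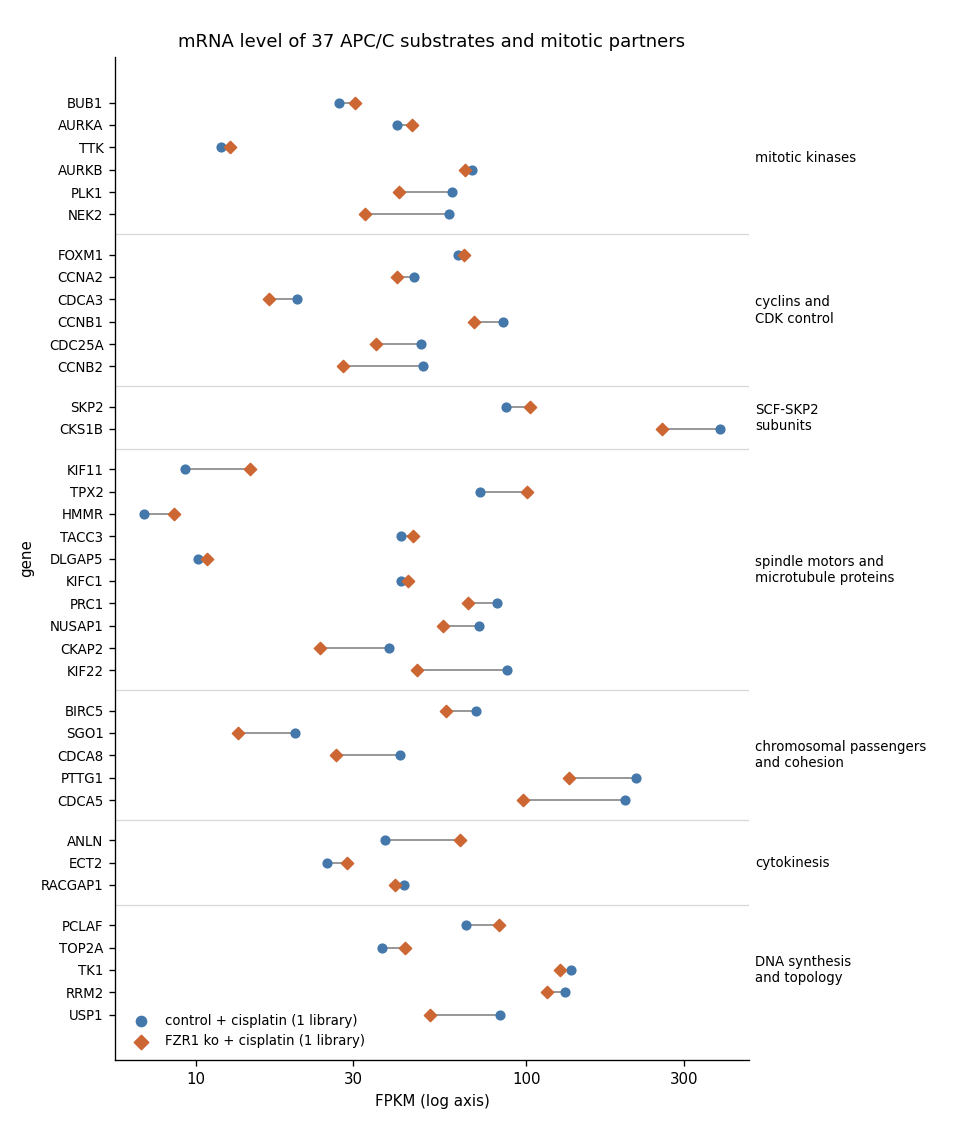
FPKM of each of the 37 genes on a log axis, in control (circles) and FZR1 ko (diamonds), grouped by the role of the protein, with a line joining the 2 libraries. All 5 genes of the passenger and cohesion group lie to the left in FZR1 ko, while ANLN moves to the right from 37.2 to 63.1 FPKM.

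The promoters of the genes at both ends of this order are shown because many mitotic genes share promoter elements. The cell cycle genes homology region (CHR) is an element bound by the DREAM and MuvB complexes, and the CCAAT box is bound by NF-Y. Each sequence is the 150 bases just before the gene's start, 5′ to 3′ on the strand of the gene, from RefSeq on GRCh38.p14. Capitals mark TTTGAA or TTCGAA, the forms of the CHR searched, and CCAAT, each on either strand. TPX2 has no entry in the promoter table.
ANLN: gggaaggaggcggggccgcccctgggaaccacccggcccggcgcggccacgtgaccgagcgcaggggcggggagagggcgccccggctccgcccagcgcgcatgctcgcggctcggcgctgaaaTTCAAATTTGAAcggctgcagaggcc
KIF11: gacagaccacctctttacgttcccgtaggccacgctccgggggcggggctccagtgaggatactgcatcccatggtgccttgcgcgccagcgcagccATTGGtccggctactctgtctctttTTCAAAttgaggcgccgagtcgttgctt
NEK2: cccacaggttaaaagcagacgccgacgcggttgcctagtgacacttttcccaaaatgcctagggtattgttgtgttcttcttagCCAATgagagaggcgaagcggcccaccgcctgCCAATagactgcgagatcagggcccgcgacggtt
KIF22: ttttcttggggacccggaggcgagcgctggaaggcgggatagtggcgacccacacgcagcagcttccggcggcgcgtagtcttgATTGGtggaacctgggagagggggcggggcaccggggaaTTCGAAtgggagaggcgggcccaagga
CDCA5: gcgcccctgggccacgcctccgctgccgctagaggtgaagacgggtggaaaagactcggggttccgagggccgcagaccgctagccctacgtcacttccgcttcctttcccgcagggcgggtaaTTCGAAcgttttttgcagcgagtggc

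The ANLN stretch lies at chr7:36389712-36389861 on the plus strand and holds 2 CHR matches side by side, 1 on each strand. That of KIF11 lies at chr10:92592980-92593129 on the plus strand, with 1 CHR match and 1 CCAAT box. That of NEK2 lies at chr1:211675622-211675771 on the minus strand, with 2 CCAAT boxes. The KIF22 stretch, at chr16:29790601-29790750 on the plus strand, holds 1 CHR match in its second form and 1 CCAAT box. The CDCA5 stretch, at chr11:65084041-65084190 on the minus strand, holds 1 CHR match in the second form. Of these 5 stretches 4 thus held a CHR match, among genes that were higher and genes that were lower in FZR1 ko.

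Across the whole promoter window, from 250 bases before the start to 50 bases after it, 31 of the 37 genes had an entry. TTTGAA or TTCGAA on either strand was found in 18 of the 31 (58.1%), in 11% of the 10354 promoters of genes kept and in 16.6% of all 27305 promoters. CCAAT was found in 24 of the 31 (77.4%), against 37.3% of genes kept and 35.7% of all promoters. Both elements occurred together in 16 of the 31 (51.6%), against 4.84% and 6.58%. In the promoters of the 31 genes 1 CHR match overlapped a CCAAT match. The E2F letters GGCGC were found in 27 of the 31 (87.1%), against 74.9% of genes kept and 48.3% of all, and GCGGGAA in 2 of the 31 (6.45%), against 10.4% and 6.56%. In the same 31 promoters 2 GGCGC matches overlapped a CCAAT match, and no other pair of these motifs overlapped. The 18 genes with a CHR match had a median log2 ratio of -0.27, with 8 higher in FZR1 ko. The 13 genes without it had a median of -0.18, with 3 higher. With TTTGAA alone the order turned, with a median of -0.10 over the 14 genes that held it and -0.29 over the 17 that did not. With a CCAAT match the median was -0.29 over 24 genes, and without it 0.12 over 7 genes. Both groups spread widely, from -0.89 to 0.60 with CCAAT and from -1.02 to 0.74 without it, so the groups overlapped.

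The mitotic kinases differed from each other. NEK2, which acts in centrosome separation, was the lowest, with 58.3 FPKM in control against 32.5 in FZR1 ko (log2 ratio -0.82). PLK1, a kinase of mitotic entry and spindle assembly, had 59.5 and 41.2 FPKM (-0.52). AURKB, the kinase of the chromosomal passenger complex, had 68.7 and 65.4 FPKM (-0.07). These 3 were lower in FZR1 ko, although only NEK2 passed 1.5-fold. AURKA, the centrosome and spindle kinase and a well known FZR1 substrate, had 40.6 and 45.2 FPKM (0.15). BUB1 and TTK, kinases of the spindle checkpoint, were also slightly higher. BUB1 had 27.1 and 30.4 FPKM (0.16). TTK, at 12.0 and 12.7 FPKM (0.08), was the least abundant of the 6 in both libraries.

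The cyclins and regulators of CDK activity were mostly lower in FZR1 ko, with a median of -0.27 over 6 genes and 5 of them lower. With the trends of length and GC content removed, described below, that median was -0.17. CCNB2, a cyclin of mitotic CDK1, had 48.7 FPKM in control against 27.8 in FZR1 ko (-0.79). CCNB1, the main mitotic cyclin, had 85.2 and 69.7 FPKM (-0.29). CCNA2, the cyclin of S phase and G2, had 45.7 and 40.8 FPKM (-0.16). The B-type cyclins thus differed in size, and only CCNB2 passed 1.5-fold. CDC25A, a phosphatase that activates CDKs, had 48.1 and 35.1 FPKM (-0.44). CDCA3, which promotes entry into mitosis, had 20.2 and 16.7 FPKM (-0.26). FOXM1, a transcription factor of G2 and mitotic genes, was the exception with 62.2 and 64.8 FPKM (0.06). Its gene span overlaps that of RHNO1, at 39.8 and 27.1 FPKM, and the counting is not stated to use strand.

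SKP2 and CKS1B encode the substrate receptor and its cofactor in the SCF-SKP2 ubiquitin ligase, which degrades CDK inhibitors such as p27. They went in opposite directions. SKP2 had 86.6 FPKM in control against 103 in FZR1 ko (0.24). CKS1B had 386 and 257 FPKM (-0.59), and was the most abundant of the 37 genes in both libraries, at place 187 of the genes kept in control and 248 in FZR1 ko.

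Spindle motors and microtubule proteins, 10 genes, split into 6 higher and 4 lower, with a median of 0.07. KIF11, the motor that separates spindle poles, had 9.30 FPKM in control against 14.6 in FZR1 ko (0.60). TPX2, the activator of AURKA on spindle microtubules, had 72.3 and 101 FPKM (0.47). HMMR, a spindle pole protein, had 6.97 and 8.58 FPKM (0.27). Of these 3, KIF11 alone passed 1.5-fold, from a low level. It was short of it with a pseudocount of 5 FPKM, at 0.46, and with the length trend removed as described below, at 0.47. TACC3, a protein that stabilises spindle microtubules, had 41.7 and 45.6 FPKM (0.12), and its gene overlaps TMEM129. DLGAP5, a spindle assembly factor, had 10.1 and 10.8 FPKM (0.08). KIFC1, a minus end motor, had 41.8 and 43.8 FPKM (0.07). Both hardly differed. Of the 4 lower genes, 2 passed 1.5-fold. KIF22, a motor that moves chromosome arms, had 87.3 and 46.6 FPKM (-0.89). CKAP2, a microtubule binding protein, had 38.5 and 23.7 FPKM (-0.68). NUSAP1, which bundles microtubules at chromosomes, had 72.1 and 55.9 FPKM (-0.36). PRC1, the bundler of the central spindle, had 81.7 and 66.7 FPKM (-0.29), so it did not pass 1.5-fold.

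Genes sorted as chromosomal passenger and cohesion genes were all lower in FZR1 ko, 5 of 5, where 50.3% of all genes kept were lower. Their median of -0.62 was the lowest of the 7 roles. AURKB, the kinase of the passenger complex, was sorted with the mitotic kinases instead. CDCA5 encodes sororin, which protects sister chromatid cohesion. It had 199 FPKM in control against 97.6 in FZR1 ko (-1.02), and was the 1 gene of the 37 that passed 2-fold. It was just short of 2-fold with a pseudocount of 5 FPKM, at -0.99, and short of it with length removed, at -0.94. PTTG1 encodes securin, the inhibitor of separase that the APC/C destroys at anaphase. It had 215 and 135 FPKM (-0.67), and was short of 1.5-fold, at -0.56, with the trend of transcript length removed as described below. Its close copy PTTG2 was listed at 0 in both libraries. ESPL1, which encodes separase itself, is in the list of other substrates below and had 25.3 and 24.6 FPKM (-0.04). CDCA8, or borealin, had 41.4 and 26.6 FPKM (-0.62), and was also short of 1.5-fold with length removed, at -0.53. BIRC5, or survivin, had 70.2 and 57.3 FPKM (-0.29). With AURKB at -0.07, these subunits of the passenger complex covered a range from near 0 to just past 1.5-fold. SGO1, or shugoshin, which guards centromeric cohesion, had 19.98 and 13.4 FPKM (-0.54).

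The 3 cytokinesis genes had the highest median, 0.20. ANLN encodes anillin, a scaffold of the contractile ring. It had 37.2 FPKM in control against 63.1 in FZR1 ko, and its log2 ratio of 0.74 was the highest of the 37. ECT2, the exchange factor that activates RHOA at the cell equator, had 24.9 and 28.7 FPKM (0.20). RACGAP1, its partner in centralspindlin, had 42.6 and 40.2 FPKM (-0.08). The last 2 differed by less than 1.5-fold.

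Genes of DNA synthesis and topology were divided, with 2 higher and 3 lower and a median of -0.11. USP1, a deubiquitinase of PCNA and FANCD2, had 83.5 FPKM in control against 51.1 in FZR1 ko (-0.70). RRM2, the small subunit of ribonucleotide reductase, had 131 and 116 FPKM (-0.18). TK1, thymidine kinase of S phase, had 136 and 126 FPKM (-0.11). Thus RRM2 and TK1, which supply nucleotides, stayed within 1.5-fold. TOP2A, the topoisomerase that untangles chromosomes, had 36.6 and 43.0 FPKM (0.23). PCLAF, a PCNA binding protein, had 65.6 and 82.8 FPKM (0.33).

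The 37 genes were set beside other cell cycle lists. Of 39 other reported APC/C substrates, 31 were lower and 8 higher in FZR1 ko, with a median of -0.33. In that list 10 genes (25.6%) were at least 1.5-fold lower and 2 (5.13%) at least 1.5-fold higher, against 17.6% and 18% of all genes kept. With the length trend removed as described below, these were 13 (33.3%) and 1 (2.56%), against 17.6% and 17.2%, with a median of -0.37. The lowest were ID2, an inhibitor of differentiation factors, with 28.4 and 4.36 FPKM, and the E2F factors E2F8 with 25.1 and 9.91 FPKM and E2F1 with 83.4 and 38.8 FPKM. The highest were BUB1B with 9.12 and 15.5 FPKM, KIF4A with 5.74 and 9.49 FPKM and KIF20B with 4.57 and 7.29 FPKM. Of 54 other genes of G2 and mitosis, 21 of which are also in the substrate list, 33 were lower and 21 higher, with a median of -0.11, or -0.21 with length and GC content removed. There, 7 genes (13%) were at least 1.5-fold lower and 7 at least 1.5-fold higher, both below the shares over all genes kept. SHCBP1 at 45.5 and 18.6 FPKM, KPNA2 at 325 and 164 FPKM and UBE2C at 286 and 155 FPKM were the lowest, and CIT at 1.06 and 4.01 FPKM, LMNB1 at 22.9 and 48.2 FPKM and MELK at 11.5 and 21.9 FPKM the highest. Of 35 genes of G1/S and replication, 6 of which are in the substrate list too, 19 were lower and 16 higher, with a median of -0.04. CCNE2 and CCNE1, the E cyclins, were the lowest with E2F1, and POLA1 and PRIM1 were among the highest. CCNE1 had 56.7 and 22.9 FPKM, and POLA1, a subunit of the replicative primase complex, had 3.01 and 9.63 FPKM. The lists were not tested against each other.

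The factors that drive or restrain the APC/C were lower in all 6 cases, with a median of -0.52. This is not a separate group, since 4 of the 6 were already counted among the other substrates, 2 of these also among the genes of G2 and mitosis, and FZR1 is the targeted gene. FBXO5, or EMI1, an inhibitor of the APC/C that is itself a substrate, had 51.6 FPKM in control against 24.2 in FZR1 ko (-1.06). The ubiquitin conjugating enzymes UBE2C and UBE2S followed, at -0.88 and -0.74. CDC20, the mitotic activator, had 80.2 and 70.5 FPKM (-0.18). Of 12 genes for p21, RB family proteins and the DREAM complex, which hold down cell cycle genes, 6 were higher and 6 lower, with a median of -0.05. With the length trend removed 4 were higher and 8 lower, with a median of -0.24. CDKN1A was the lowest at -2.03, followed by LIN37 at -0.75 and LIN52 at -0.56. RBL1 at 0.96, RB1 at 0.88 and E2F5 at 0.73 were the highest, from control levels of 2.92, 5.81 and 4.47 FPKM.

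**Figure D2:**
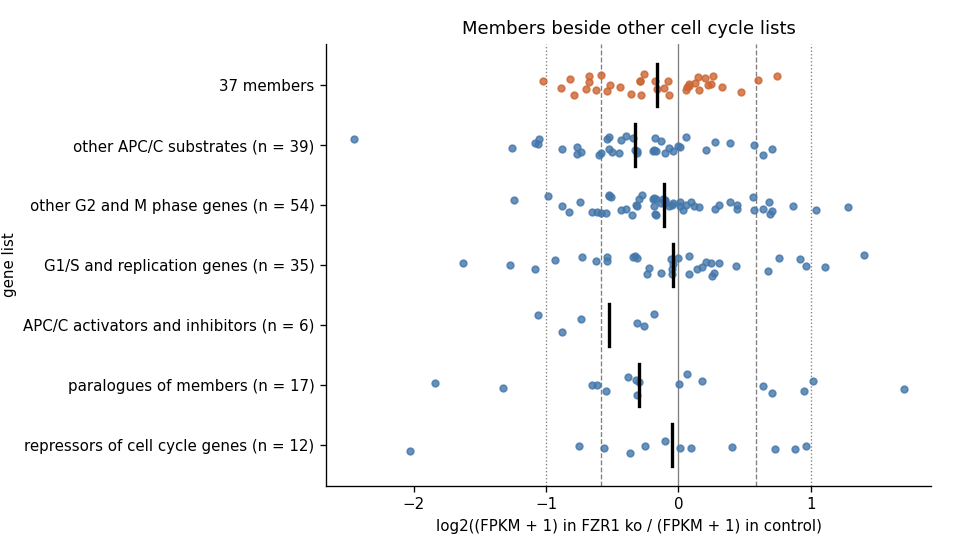
Log2 ratio of each gene of the 37 (orange) and of other lists (blue), with black bars at the median, dashed lines at 1.5-fold and dotted lines at 2-fold. The last list holds p21, RB family and DREAM genes. The 37 genes lie between -1.02 and 0.74, while genes of the other lists reach from -2.45 to 1.70.

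The log2 ratio moved with transcript length in these libraries. The length used was that of the canonical GENCODE 44 transcript, which was found for all 37 genes and for 96.1% of the genes kept. Over 20 groups of genes of rising length, the median log2 ratio went from -0.16 in the shortest group to 0.32 in the longest. Neither of those groups held any of the 37, and the medians of groups that did ran from -0.11 to 0.18. Among the 37, the 18 shorter genes (715 to 2748 bases) had a median of -0.32, with 15 lower and 3 higher. The 18 longer genes (2881 to 5695 bases) had a median of 0.08, with 7 lower and 11 higher. Of the 9 genes past 1.5-fold lower, 7 were among the shorter 18. CKS1B with 779 bases and PTTG1 with 715 bases were the shortest of the 37, and both higher genes past 1.5-fold, ANLN with 4731 bases and KIF11 with 5016 bases, were among the longest. Across the 37 genes the log2 ratio and log2 length had a Pearson correlation of 0.46 and a Spearman correlation of 0.45, and across 13027 genes kept 0.16 and 0.18. Across the 7208 genes with a length and a mean FPKM in the range of the 37, these were 0.105 and 0.099. These genes share the same 2 libraries, and genes are not independent replicates.

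With the median of genes of the same length subtracted, the median of the 37 was -0.14, with 21 lower and 16 higher. The shorter 18 then had a median of -0.24 and the longer 18 one of 0.09. The number past 1.5-fold lower became 6 of 37 (16.2%), against 17.6% of all genes treated alike, and ANLN was the 1 gene past 1.5-fold higher. All 5 genes sorted as passenger and cohesion genes were still lower, with a median of -0.53 and CDCA5 at -0.94. AURKB, the passenger kinase sorted with the mitotic kinases, was at 0.008, and at 0.07 with GC content included. With GC content of the transcript included, the median of the 37 was -0.08 and that of the passenger and cohesion genes -0.46. These settings were chosen after the data were seen.

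Reads of a few of the 37 may be shared with other genes. AURKAP1, a pseudogene of AURKA, had 3.43 and 1.10 FPKM, and RACGAP1P1 had 0.02 FPKM in control and 0 in the knockout library. CCNA2 overlaps EXOSC9 at 36.2 and 32.3 FPKM, SKP2 overlaps NADK2 at 50.9 and 46.3 FPKM, and ANLN overlaps MATCAP2 at 8.56 and 6.48 FPKM. These overlaps are of whole gene spans, introns included, and shared exons were not looked for. The counting is not stated to use strand, so values of these genes may be less certain.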

How the data were processed

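Total RNA of 1 control and 1 FZR1 ko sample with cisplatin was sequenced on a BGISEQ-500 platform. The authors aligned reads with Bowtie2 and RSEM to the transcriptome of hg38, with UCSC as the source of the reference. The submitters' processing notes name Bowtie2 2.2.5, HISAT2 2.1.0 and Trimmomatic 0.36, and the release of the gene annotation is not given in the sources used here. The authors deposited FPKM per Entrez gene ID with 2 decimals. FPKM holds no read number, so no interval was computed, and it depends on the effective length given to each transcript.

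Symbols came from the RefSeq table of GRCh38.p14, the hg38 build, which matched 22925 of 23033 IDs. Log2 ratios used a pseudocount of 1 FPKM, which understates the change of low genes, among genes that reached 1 FPKM in either library. With single libraries no test was run, and fold thresholds of 1.5 and 2 were counted beside the same over all genes kept. The computation was tested on simulated data. The members and lists were chosen with earlier results of these data known. All members were named, with FZR1, CDKN1A and the 3 highest and 3 lowest genes of each cell cycle list, of which 1 is not reported here, and ESPL1 and single markers were named after their values were seen. Transcript length and GC content came from GENCODE 44 by gene symbol. Motifs were searched by letters on both strands of RefSeq promoters. Proteins were not analysed here. Ratios were computed with numpy 2.4.6 and pandas 2.3.3 in Python 3.11.15, and plots drawn with matplotlib 3.10.9. Alternatives tried were 0.1 or 5 FPKM as pseudocount, other filters on low values, centring on the median, rescaling to 1 sum, and, added later, removal of the trend with length or GC content and protein-coding genes only.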

Additional observations from a re-analysis of the deposited data

How the results depend on the processing

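No paired analysis was possible because only 1 library was made of control and 1 of FZR1 ko, and no replicate could be left out. Of the 37 genes, none changed direction under 6 changes of pseudocount, filter and scaling, and the largest move of a log2 ratio was 0.14, with a pseudocount of 5 FPKM. With the trend of length removed AURKB changed sign, and with length and GC content removed AURKB and FOXM1 did. The median of the 37 stayed negative under all 9 alternatives, from -0.16 to -0.08. The number past 1.5-fold higher, 2 at first, was 1 with a pseudocount of 5 FPKM, 1 with the length trend removed and 1 with length and GC content removed. The number past 2-fold lower, 1 at first, was 0 under the same 3 settings. CDCA5, the gene concerned, lay close to that threshold. The number past 1.5-fold lower, 9 at first, ranged from 6 to 9. CKS1B, on the threshold, was lost with centring or rescaling, CKS1B and CDCA8 with a pseudocount of 5 FPKM, and CKS1B, CDCA8 and PTTG1 with length removed. With length and GC content removed the same 3 were lost and SGO1 was past it. The background moved as well with a pseudocount of 5 FPKM. Of the 13554 genes kept, 1238 were then at least 1.5-fold lower, down from 2387, where 7 of the 37 were. At least 1.5-fold higher were 1113, down from 2440, and at 2-fold 183 were higher, down from 919, and 270 lower, down from 911. With a pseudocount of 0.1 FPKM it grew at 2-fold, to 1460 higher and 1358 lower, while the members' counts at both thresholds did not change. The luminal markers had a median of -0.014 without a filter on low values, against 0.34, since 5 markers below 1 FPKM then entered, and under that setting the median of the immune and stromal markers was 0.018 against 0.35. Depth is unknown, so counting error of the low genes HMMR, KIF11 and DLGAP5 could not be given.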

Other observations

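Paralogues of the 37 genes ranged from -1.84 to 1.70 in log2 ratio, beyond the members on both sides. Of 21 paralogues listed, 17 passed 1 FPKM, and their median log2 ratio was -0.30, with 8 higher and 9 lower in FZR1 ko. In this list 5 genes were at least 1.5-fold higher and 4 at least 1.5-fold lower, 29.4% and 23.5%, against 18% and 17.6% of all genes kept. With the length trend removed these counts were 4 and 3, and 6 paralogues were higher and 11 lower. Without the filter on low values the median was 0. BUB1B and KIF4A, among the 5 higher genes, also belong to the lists of other substrates and of G2 and mitosis.

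The polo-like kinases differed within the family. PLK1, the mitotic member, had 59.5 FPKM in control against 41.2 in FZR1 ko. PLK3 and PLK2, stress responsive kinases, had 39.7 and 10.4 FPKM (log2 ratio -1.84) and 115 and 45.2 FPKM (-1.33). PLK4, the kinase of centriole duplication, had 12.6 and 9.88 FPKM (-0.32).

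Topoisomerases and ribonucleotide reductase subunits were compared in the same way. TOP2A had 36.6 and 43.0 FPKM (0.23), while TOP2B, the form that is not restricted to dividing cells, had 18.6 and 36.8 FPKM (0.95). With the length trend removed TOP2A was at 0.05 and TOP2B at 0.77. RRM2 had 131 and 116 FPKM (-0.18), and RRM2B, its p53 inducible paralogue, had 12.5 and 7.55 FPKM (-0.65). RRM1, the large subunit, from the list of other substrates, went the other way with 127 and 147 FPKM (0.21). CKS1B and CKS2, close relatives of similar length, were both lower, with CKS2 at 183 and 119 FPKM (-0.62).

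NEK2 and NEK6 were the pair furthest apart. NEK2 had 58.3 and 32.5 FPKM (-0.82), and NEK6 had 3.17 and 12.6 FPKM (1.70), the highest log2 ratio in the list. NEK7 lay between them, with 8.82 and 10.1 FPKM (0.18). TACC3 had 41.7 and 45.6 FPKM (0.12), beside TACC2 with 4.03 and 9.17 FPKM (1.02) and TACC1 with 11.4 and 12.0 FPKM (0.06). With the length trend removed TACC3 was at 0.15, TACC2 at 0.69 and TACC1 at -0.21. AURKC, the meiotic Aurora kinase, had 0.32 and 0.11 FPKM, and CCNA1, the germline A cyclin, was listed at 0 in both libraries. With single libraries these differences cannot be set against a spread.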
